A study of Danio rerio with 11 samples.

Results

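The transcripts described here encode the translation initiation factors of zebrafish (Danio rerio) other than the cap-binding eIF4E family. Members were all genes whose symbol begins with eif and a digit, without those beginning with eif4e, which gave 54 of the 32520 gene identifiers counted. They comprised 5 genes of eIF1 and eIF1A, 4 eIF2 subunits, 4 eIF2 alpha kinases, 2 genes of eIF2A and eIF2D, 5 eIF2B subunits, 17 eIF3 subunits, 4 eIF4A genes, 3 genes of eIF4B and eIF4H, 5 eIF4G genes, 2 genes of eIF5 and eIF5B, 2 eIF5A genes and 1 eIF6 gene. Genes were assigned to factors by symbol alone, which placed eif1ad with eIF1A. Where a symbol was shared by several identifiers and no zebrafish symbol was given, the Ensembl identifier is printed. The study asked which mRNAs are bound by eIF4E1b, an eIF4E paralog of the egg and early embryo, as compared with the canonical eIF4E1c, using RNA immunoprecipitation (RIP), which recovers a tagged protein on beads and sequences the RNA attached to it.

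RNA came from 8-cell embryos carrying tg(actb2:3xflag-sfGFP-eIF4E1b) or tg(actb2:3xflag-sfGFP-eIF4E1c), and both transgenes place the same tag in front of the protein under the broadly active actb2 promoter. The embryos kept their own eIF4E proteins, so all 4 groups held endogenous eIF4E1b and eIF4E1c beside the tagged protein. RIPs numbered 3 for eIF4E1b and 2 for eIF4E1c, and each protein had 3 inputs, which are lysate RNA set aside before the pulldown. Replicates were labelled as biological. No RIP from untagged embryos was analysed here, so RNA that stuck to the beads cannot be told apart from bound RNA in any single RIP.

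As background, initiation begins when eIF4E, bound to the 5′ cap, joins the scaffold eIF4G and the RNA helicase eIF4A to form the eIF4F complex, which eIF4B and eIF4H stimulate. The complex recruits the small ribosomal subunit, which carries eIF1, eIF1A, eIF3, eIF5 and eIF2 with the initiator tRNA, and eIF5B later joins the large subunit, which eIF6 otherwise keeps apart. The 8-cell embryo lives on RNA stored by the mother, so these transcripts are the maternal supply of the machinery that translates it. The values below are of these RNAs and not of the proteins they encode.

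Total counts lay between 6943631 and 13993294 per library, and the eIF4E1c RIP of replicate 1 was the shallowest, with counts for 15114 genes against 17520 in the other eIF4E1c RIP and at least 18480 in the other 9 libraries. A list of 9 maternal transcripts summed to between 17571 and 64971 normalised read counts in every library. Lists of zygotic, differentiated-tissue and ovarian follicle genes summed to at most 50.3. That highest sum was of the follicle list and was mostly gsdf, at 49.1 in the eIF4E1c input of replicate 1. Of the listed genes, dharma, fabp2 and neurod1 were among those at 0 in all 11 libraries. The libraries thus carried the maternal RNA that the labels describe, and little of the other lists. Normalised read counts are counts divided by median-of-ratios size factors over the 11 libraries. They are not corrected for gene length, so they compare libraries within a gene and not genes with each other.

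The members together took 1.23% ± 0.132 of the counts in eIF4E1b RIPs (SD, n = 3) and 1.202% ± 0.123 in eIF4E1c RIPs (n = 2), against 0.793% ± 0.0317 in eIF4E1b inputs and 0.816% ± 0.0294 in eIF4E1c inputs (n = 3 each). Replicates spread more in RIPs than in inputs. The highest library exceeded 2 times the lowest for 16 of 53 members in eIF4E1b RIPs and for 13 in eIF4E1c RIPs, against 2 in eIF4E1b inputs and 3 in eIF4E1c inputs. Over all genes tested the same held for 32.9% and 44.8% of genes in the eIF4E1b and eIF4E1c RIPs and for 16.7% and 20% in the eIF4E1b and eIF4E1c inputs. This measure tends to grow with the number of libraries, which was 2 for eIF4E1c RIPs and 3 for each other group. The eIF4E1c RIP group rests on 2 libraries that differed 4.38-fold in eif5b and 9.13-fold in eif3ha, which limits what can be said of those genes.

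The first comparison asked which members came down more with eIF4E1b than with eIF4E1c. A gene was called at a Benjamini-Hochberg adjusted p under 0.005 by DESeq2's Wald test, and eif2s1a and eif2d were higher in eIF4E1b RIPs and eif4g3a and eif4g3b were lower. That is 2 of 53 members tested in each direction, beside a background of 3.44% of all 14127 genes called higher and 4.51% called lower. The members' share was near that background, and their median log2 fold change was -0.10 beside -0.01 for all genes. edgeR's quasi-likelihood test called 0 members at 0.005 in either direction, beside 2 genes higher and 2 lower in the whole table, and at an unadjusted p under 0.05 it listed 9 members higher and 10 lower, beside 1731 and 2136 of 14017 genes. At the same unadjusted threshold DESeq2 listed 9 members higher and 11 lower, beside 2091 and 2316 of 14127 genes. The unadjusted counts of single factors below stand beside these same backgrounds and are not read as particular to a factor. The members with the smallest adjusted p under edgeR were eif4g3b and eif4g3a.

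**Figure D1:**
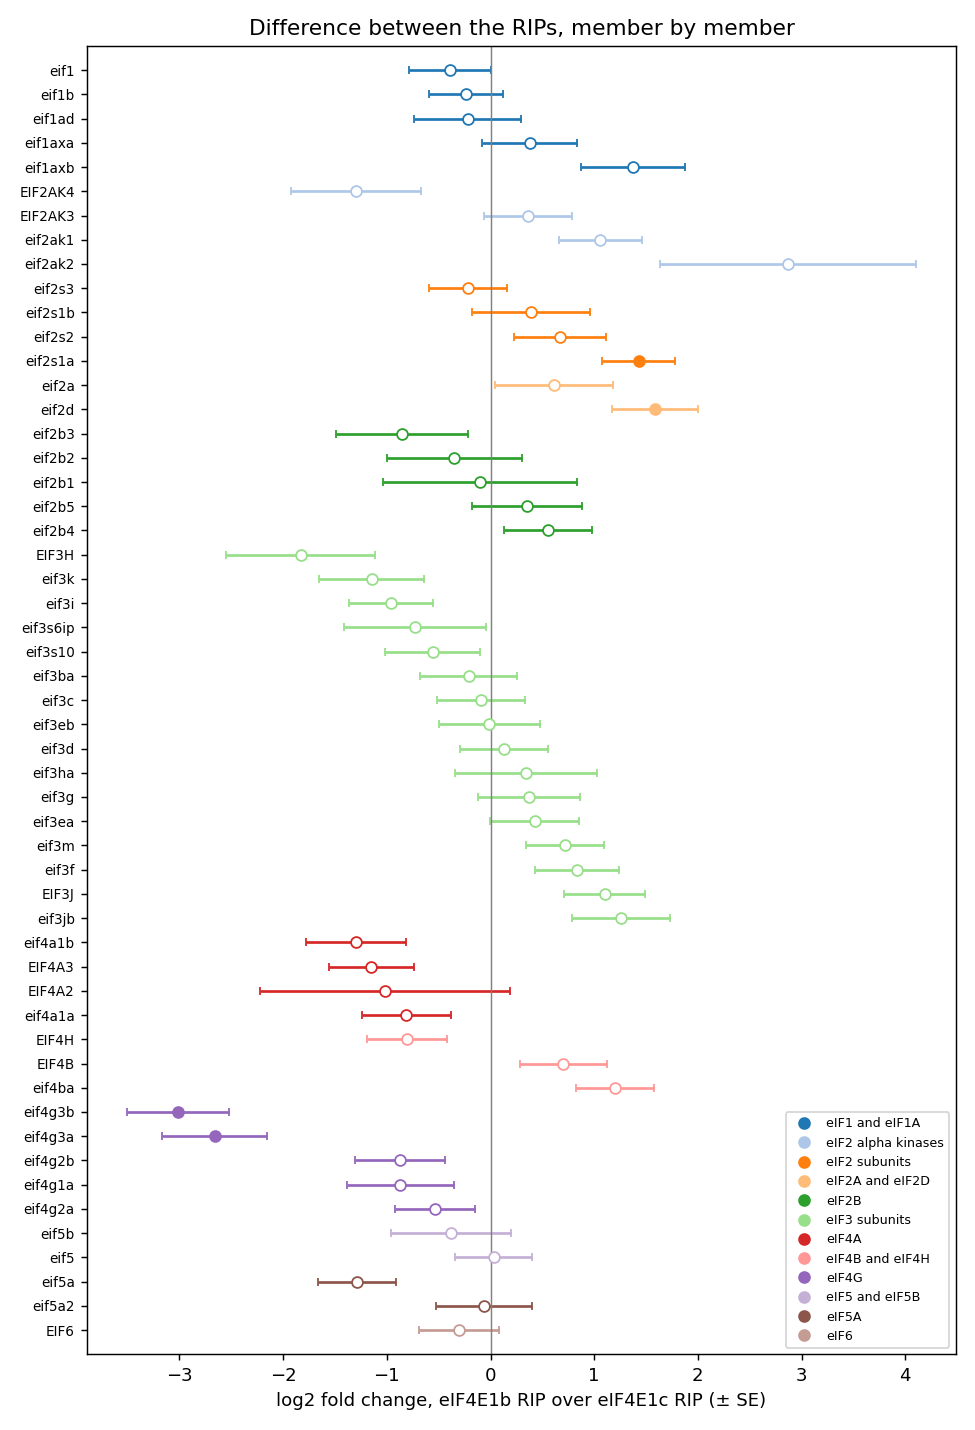
Log2 fold change of eIF4E1b RIP over eIF4E1c RIP for the 53 members tested, with DESeq2 standard errors, grouped and coloured by factor; filled points passed an adjusted p under 0.005. The 5 eIF4G and 4 eIF4A genes all sit left of 0, with eif4g3a at -2.66 and eif4g3b at -3.01, while eif2s1a at 1.43 and eif2d at 1.59 are the filled points on the right.

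Among the parts of eIF4F, the transcripts called between the RIPs were the paralogs of eIF4G3. For eif4g3b, one of the zebrafish copies of the eIF4G3 scaffold, normalised read counts were 230.7, 119 and 118 in eIF4E1b RIPs, against 1503 and 920.0 in eIF4E1c RIPs. For eif4g3a, its paralog, they were 224, 91.8 and 165 in eIF4E1b RIPs, against 1195 and 750.1 in eIF4E1c RIPs. The highest eIF4E1b RIP stayed below the lowest eIF4E1c RIP for both copies. Groups of 3 and 2 libraries can separate without a difference. How many of all genes did so was not counted, so non-overlap here and below only describes the values. The log2 fold changes were -3.01 ± 0.493 (SE, DESeq2 adjusted p = 1.9e-07) for eif4g3b and -2.66 ± 0.506 (DESeq2 adjusted p = 1.07e-05) for eif4g3a, or 0.124 and 0.158 times the eIF4E1c level. Of all genes tested, 1.85% lay at or below the value of eif4g3b and 2.68% at or below that of eif4g3a. Under edgeR the adjusted p were 0.00653 for eif4g3b and 0.00971 for eif4g3a.

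In inputs eif4g3a averaged 2262 ± 201 in eIF4E1b and 2621 ± 229 in eIF4E1c embryos (SD, n = 3 each), and eif4g3b averaged 1764 ± 166 in eIF4E1b and 2113 ± 308 in eIF4E1c embryos. Neither passed the test between inputs (DESeq2 adjusted p = 0.42 for eif4g3a and 0.35 for eif4g3b). Relative to its own input, eif4g3a was lower in both RIPs, at 0.0697 times input with eIF4E1b and 0.371 times with eIF4E1c. For eif4g3b the RIP stood at 0.0870 times input with eIF4E1b, which passed the test, and at 0.573 times input with eIF4E1c, which did not (DESeq2 adjusted p = 0.046).

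The other 3 eIF4G genes had negative log2 fold changes between the RIPs, and none passed the test. For eif4g1a, the major scaffold, counts were 4637, 2733 and 5708 in eIF4E1b RIPs, against 11217 and 3978 in eIF4E1c RIPs. These values overlapped, and the log2 fold change of -0.87 ± 0.520 became 0.05 without the eIF4E1c RIP of replicate 1. The copies of eif4g2, which in mammals encodes the scaffold DAP5 that lacks an eIF4E-binding site, did not overlap between the RIPs. For eif4g2a the gap was narrow. Counts of eif4g2a were 1586, 1270 and 1266 in eIF4E1b RIPs, against 1655 and 2163 in eIF4E1c RIPs, for a log2 fold change of -0.54 ± 0.387. Counts of eif4g2b were 1382, 1025 and 761 in eIF4E1b RIPs, against 1586 and 2127 in eIF4E1c RIPs, for a log2 fold change of -0.87 ± 0.430. All 5 eIF4G genes were negative under the median-of-ratios, TMM and total count scalings, and the class median of -0.87 stood beside -0.01 for all genes.

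All 4 eIF4A genes were likewise negative between the RIPs under those scalings, and 0 of the 4 passed the test by DESeq2 or by edgeR, with 2 listed at an unadjusted p under 0.05 by each. The class median was a log2 fold change of -1.08. EIF4A3, known as a helicase of the exon junction complex, had 1138, 1120 and 1072 counts in eIF4E1b RIPs, against 2961 and 1755 in eIF4E1c RIPs, and the groups did not overlap. Its log2 fold change was -1.15 ± 0.407 (DESeq2 adjusted p = 0.031). The canonical helicase gene eif4a1a had 1693, 1178 and 1051 counts in eIF4E1b RIPs, against 1734 and 2672 in eIF4E1c RIPs, and a log2 fold change of -0.81 ± 0.427. Its paralog eif4a1b had 335, 194 and 179 counts in eIF4E1b RIPs, against 637 and 474 in eIF4E1c RIPs, and a log2 fold change of -1.29 ± 0.482 (DESeq2 adjusted p = 0.042). EIF4A2 was scarce, with 4.26 to 12.2 counts in eIF4E1b RIPs and 17.1 to 19.5 in eIF4E1c RIPs, and its 95% interval ran between -3.38 and 1.35.

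**Figure D2:**
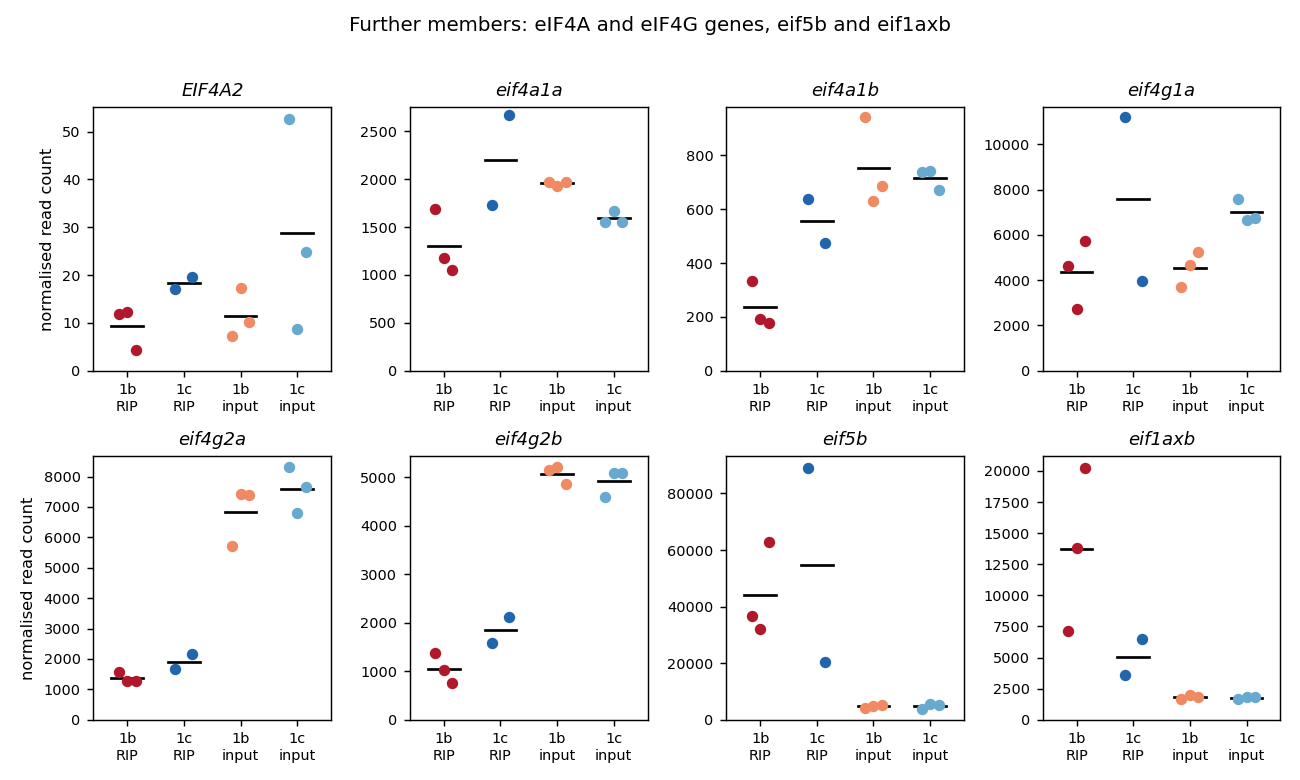
Normalised read counts of the eIF4A and eIF4G genes that were not called between the RIPs or in the RIP to input ratio, and of eif5b and eif1axb; each dot is a library, each bar a group mean, and 1b and 1c stand for eIF4E1b and eIF4E1c. The high eIF4E1c RIP dots of eif4g1a (11217) and eif5b (88949) are the same library, replicate 1, and eif4g2a and eif4g2b sit far below their inputs in every RIP.

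Of the stimulators of eIF4A none passed the test between the RIPs, by DESeq2 or by edgeR, and each tool listed 1 higher and 1 lower at an unadjusted p under 0.05. eif4ba, a copy of eIF4B, had 4959, 5440 and 4142 counts in eIF4E1b RIPs, against 2134 and 1911 in eIF4E1c RIPs. It stood at 2.297 times the eIF4E1c level without overlap and missed the call (DESeq2 adjusted p = 0.012). The second copy, EIF4B, gave a log2 fold change of 0.70 ± 0.415. EIF4H, whose product shares the stimulating role, had 456, 437 and 467 counts in eIF4E1b RIPs, against 757 and 763 in eIF4E1c RIPs, a log2 fold change of -0.81 ± 0.389 that did not pass the test (DESeq2 adjusted p = 0.13).

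Of the factors on the small subunit, the gene called was eif2s1a, which encodes the alpha subunit of eIF2. eIF2 is the GTPase that brings the initiator tRNA, and phosphorylation of its alpha subunit is the switch of the integrated stress response. eif2s1a had 15713, 16686 and 17568 counts in eIF4E1b RIPs, against 5740 and 6088 in eIF4E1c RIPs, with no overlap. That was a 2.70-fold difference, or a log2 fold change of 1.43 ± 0.353 (DESeq2 adjusted p = 0.00103; edgeR adjusted p = 0.059). The second alpha copy, eif2s1b, had 429, 658 and 759 counts in eIF4E1b RIPs, against 184 and 712 in eIF4E1c RIPs, which overlapped (log2 fold change 0.39 ± 0.574). The beta subunit eif2s2 had 8452, 14042 and 17176 counts in eIF4E1b RIPs, against 9665 and 6190 in eIF4E1c RIPs, and gave 0.67 ± 0.443. The gamma subunit eif2s3, which holds the GTP, had 1635, 2197 and 1820 counts in eIF4E1b RIPs, against 2112 and 2093 in eIF4E1c RIPs, and gave -0.22 ± 0.376. So only the eif2s1a copy passed the test among the 4 subunit genes, and the differences between subunits were not tested.

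eif2d, whose product can bring tRNA to the ribosome without eIF2 and acts in ribosome recycling, had 955, 1342 and 1555 counts in eIF4E1b RIPs, against 443 and 375.1 in eIF4E1c RIPs. The groups did not overlap, and the difference was 3.00-fold (log2 fold change 1.59 ± 0.415, DESeq2 adjusted p = 0.00215; edgeR adjusted p = 0.028). eif2a, named alike but a separate protein also tied to tRNA delivery, gave 0.61 ± 0.568 and did not pass the test. The calls of eif2s1a and eif2d were the least secure of the 4. Leaving out the eIF4E1b RIP of replicate 1, 2 or 3 or the eIF4E1c RIP of replicate 1 in turn ended the call of eif2s1a, with log2 fold changes between 1.37 and 1.47 and DESeq2 adjusted p between 0.0016 and 0.033 over the 5 omissions. The call of eif2d ended without the eIF4E1b RIP of replicate 2 or 3 or the eIF4E1c RIP of replicate 2, with adjusted p between 0.0031 and 0.051. Both calls also ended with total count scaling, with adjusted p of 0.017 for eif2s1a and 0.0089 for eif2d. Those of eif4g3a and eif4g3b held in all 5 omissions, with adjusted p of at most 0.0012.

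The factors eIF1 and eIF1A hold the scanning ribosome in its open form, a role not implied here for eif1ad, which was grouped with them by symbol. Of the 5 genes 0 passed the test by DESeq2 or edgeR, each of which listed 1 gene at an unadjusted p under 0.05. That gene was eif1axb, with 7099, 13828 and 20263 counts in eIF4E1b RIPs, against 3615 and 6505 in eIF4E1c RIPs (log2 fold change 1.37 ± 0.501, DESeq2 adjusted p = 0.037). Its paralog eif1axa gave 0.38 ± 0.461, with counts between 1536 and 2862 in eIF4E1b RIPs and between 1148 and 2222 in eIF4E1c RIPs. The eIF1 genes eif1 and eif1b gave -0.39 ± 0.398 and -0.23 ± 0.356, and eif1ad gave -0.22 ± 0.516. Their 95% intervals all covered 0, and the widest reached -1.23.

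eIF3 is the largest initiation factor and bridges the mRNA complex and the small subunit. Of its 17 genes, 16 could be tested between the RIPs. None passed by DESeq2 or edgeR, and each tool listed 3 genes higher and 3 lower at an unadjusted p under 0.05. Over all genes DESeq2 listed 2091 higher and 2316 lower of 14127, so such counts are common. The 8 positive and 8 negative log2 fold changes ran between -1.83 and 1.26 with a median of 0.06. The values at the upper end belonged to both genes of eIF3j, a loosely bound subunit. eif3jb had 4056, 3713 and 6506 counts in eIF4E1b RIPs, against 2593 and 1208 in eIF4E1c RIPs (log2 fold change 1.26 ± 0.471, DESeq2 adjusted p = 0.043), and the other eIF3j gene, ENSDARG00000012603, had 2719, 2893 and 4074 counts in eIF4E1b RIPs, against 1522 and 1357 in eIF4E1c RIPs (2.14-fold, DESeq2 adjusted p = 0.031). No eIF4E1b RIP overlapped an eIF4E1c RIP for either of them.

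At the lower end, the scarce eIF3h gene ENSDARG00000036116 had 15.4, 70.4 and 45.8 counts in eIF4E1b RIPs, against 182 and 117 in eIF4E1c RIPs (-1.83 ± 0.717, DESeq2 adjusted p = 0.055). eif3k had 580, 1801 and 1157 counts in eIF4E1b RIPs, against 2198 and 2804 in eIF4E1c RIPs (-1.15 ± 0.503), and eif3i had 695, 1126 and 843 counts in eIF4E1b RIPs, against 1539 and 1771 in eIF4E1c RIPs (-0.96 ± 0.407). Other subunits lay nearer to 0. eif3s10, which encodes the eIF3a scaffold, had 6598, 5000.2 and 4896 counts in eIF4E1b RIPs, against 10773 and 4734 in eIF4E1c RIPs, and the eIF4E1c values lay on both sides of all the others. eif3ba gave -0.21 ± 0.471, eif3c gave -0.09 ± 0.425 and eif3d gave 0.13 ± 0.424. The 95% interval of eif3c ran between -0.92 and 0.74, so differences of that size remain possible with these libraries. ENSDARG00000074213, a second eIF3b gene, had 0 counts in all 5 RIPs, which allows up to 3 counts per library, and averaged 3.65 ± 2.92 normalised counts in eIF4E1b inputs and 8.51 ± 3.06 in eIF4E1c inputs.

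Among the late factors, eif5b, the GTPase of subunit joining, varied between replicates of the same RIP. It had 36770, 32197 and 62974 counts in eIF4E1b RIPs, against 88949 and 20319 in eIF4E1c RIPs. The eIF4E1c RIP values enclosed all eIF4E1b RIP values, and the log2 fold change of -0.38 ± 0.578 turned to 1.03 without the eIF4E1c RIP of replicate 1. In that library eif5b took 0.599% of all counts (Wilson 95% interval 0.593 to 0.605), against 0.204% in the other eIF4E1c RIP (0.201 to 0.207), intervals that cover counting error only. eif5, the activator of the eIF2 GTPase, gave 0.03 ± 0.374 with a 95% interval between -0.70 and 0.76. EIF6 gave -0.30 ± 0.383.

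eIF5A, once counted as an initiation factor and now known to act in elongation, has 2 genes here. eif5a had 644, 782 and 749.6 counts in eIF4E1b RIPs, against 1704 and 1678 in eIF4E1c RIPs, and a log2 fold change of -1.28 ± 0.376 that just missed the call (DESeq2 adjusted p = 0.0072; edgeR adjusted p = 0.035). eif5a2 had 1589, 2811 and 3708 counts in eIF4E1b RIPs, against 2155 and 3245 in eIF4E1c RIPs, and gave -0.06 ± 0.462. Within a library, the log2 ratio of eif5a over eif5a2 was -1.82 ± 0.502 in eIF4E1b RIPs (SD, n = 3) and -0.64 ± 0.433 in eIF4E1c RIPs (n = 2), against -1.77 ± 0.118 in eIF4E1b inputs and -1.94 ± 0.295 in eIF4E1c inputs (n = 3 each). An exact permutation test of this ratio between the RIPs gave p = 0.2, and with 3 and 2 libraries it cannot go below 0.1.

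The regulators of eIF2 showed no call between the RIPs. eIF2B exchanges the nucleotide on eIF2, and its 5 subunit genes gave log2 fold changes between -0.86 for eif2b3 and 0.55 for eif2b4, with 0 listed at an unadjusted p under 0.05 by DESeq2 or edgeR. eif2b3 had 123, 98.9 and 90.5 counts in eIF4E1b RIPs, against 284 and 78.9 in eIF4E1c RIPs, and its value turned to 0.32 without the eIF4E1c RIP of replicate 1. Of the kinases that phosphorylate eIF2 alpha, eif2ak1, the heme-regulated kinase, had 2617, 2019 and 1841 counts in eIF4E1b RIPs, against 1150.2 and 835 in eIF4E1c RIPs (1.06 ± 0.404, DESeq2 adjusted p = 0.047). eif2ak2, the double-stranded RNA sensor, was at 19.2 to 37.2 counts in eIF4E1b RIPs and 2.79 to 4.28 in eIF4E1c RIPs, and its 2.87 ± 1.23 did not pass (DESeq2 adjusted p = 0.085). EIF2AK3, the kinase of endoplasmic reticulum stress, gave 0.36 ± 0.427, and EIF2AK4, the amino acid sensor, gave -1.30 ± 0.626, which was -0.53 without the eIF4E1c RIP of replicate 1 and -1.81 without that of replicate 2.

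The second comparison asked whether the lysates themselves differed. Between inputs, 0 of 54 members were higher with eIF4E1b and 2 were lower, beside 0.890% and 1.44% of all 15281 genes tested. EIF2AK4 had 269, 319 and 289.9 counts in eIF4E1b inputs, against 619, 625 and 656 in eIF4E1c inputs, a log2 fold change of -1.11 ± 0.158 (DESeq2 adjusted p = 9.6e-10; edgeR adjusted p = 0.00651). This difference held without any single input library. eif4g1a had 3711, 4660.2 and 5251 counts in eIF4E1b inputs, against 7579, 6636 and 6747 in eIF4E1c inputs, a log2 fold change of -0.61 ± 0.147 (DESeq2 adjusted p = 0.00188; edgeR adjusted p = 0.053). Its call was lost without each of 5 of the 6 input libraries, the exception being the eIF4E1b input of replicate 3, with adjusted p up to 0.020. Neither gene was called when all 11 libraries were fitted together. edgeR called 0 members between inputs, beside 12 genes higher and 2 lower in the whole table. At an unadjusted p under 0.05 it listed 4 members with positive and 8 with negative values, beside 1304 and 1553 of 14537 genes. The other 52 members ranged between -1.28 and 0.57, and the median of all members was -0.03.

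The third comparison set the RIP difference against the lysate difference, as an interaction term fitted to the 11 libraries. It shares its RIP libraries with the first comparison, so the overlap of their calls is no independent support. For each gene this fit, like those of RIP over input below, estimates a single spread over RIPs and inputs. RIPs spread more than inputs, so its p-values can be too small for the noise of RIPs. In the ratio of RIP to input, 3 of 53 members were higher for eIF4E1b than for eIF4E1c and 4 were lower, beside 3.73% and 5.24% of all 14194 genes tested. The higher members were eif2s1a with a log2 ratio difference of 1.34 ± 0.236 (SE, DESeq2 adjusted p = 1.11e-06), eif2d with 1.56 ± 0.349 (DESeq2 adjusted p = 0.0002) and eif4ba with 1.44 ± 0.287 (DESeq2 adjusted p = 2.5e-05). The lower ones were eif4g3b with -2.69 ± 0.461 (DESeq2 adjusted p = 5.12e-07), eif4g3a with -2.38 ± 0.466 (DESeq2 adjusted p = 1.55e-05), eif5a with -1.32 ± 0.298 (DESeq2 adjusted p = 0.000229) and EIF4A3 with -1.19 ± 0.336 (DESeq2 adjusted p = 0.00449). edgeR called 2 of the 7, eif4g3b and eif4g3a, both lower, beside 0.417% of all 16307 genes called higher and 1.14% called lower. Just outside lay eif3jb with 1.67 ± 0.478 (DESeq2 adjusted p = 0.00516).

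**Figure D3:**
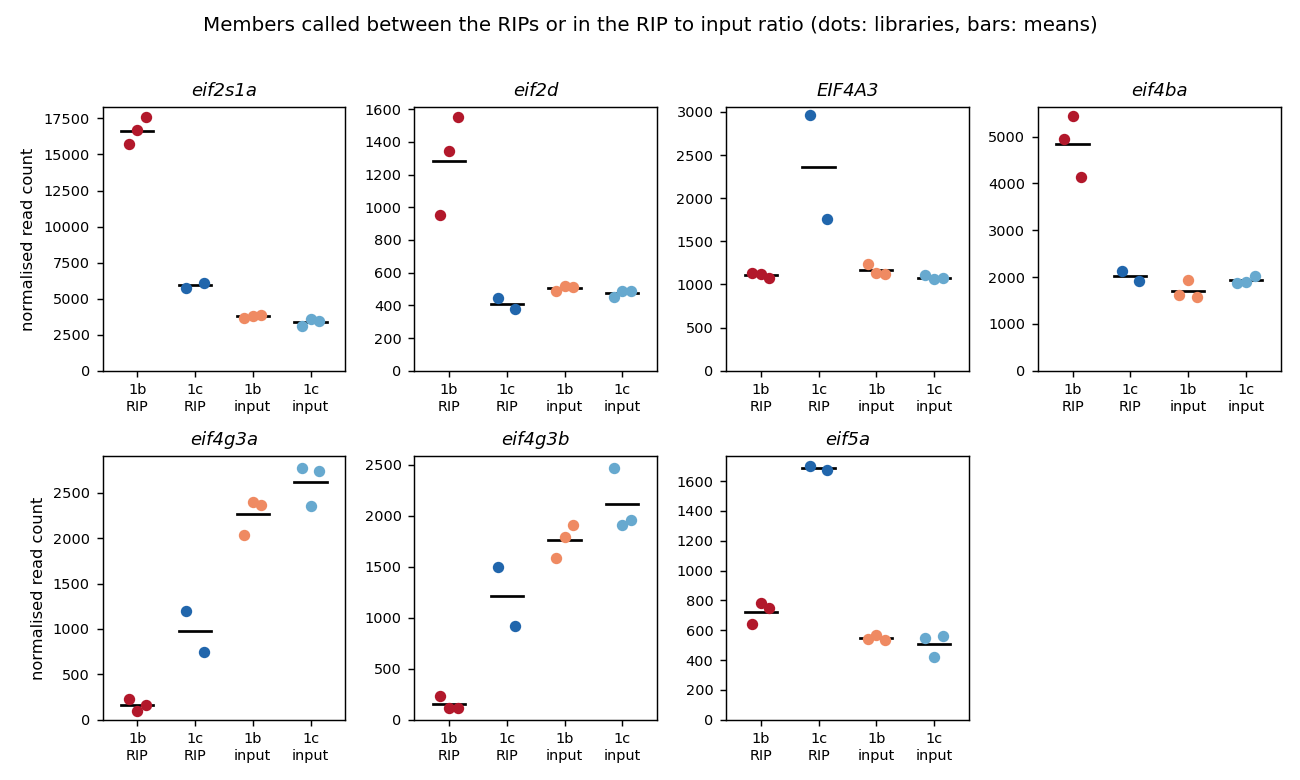
Normalised read counts, on axes starting at 0, of the 7 members called between the RIPs or in the RIP to input ratio; dots are libraries, bars group means, and 1b and 1c stand for eIF4E1b and eIF4E1c. Input means of the 2 proteins differ less than their RIP means in every panel, though single eif4g3b inputs run from 1585 to 2469. In eIF4E1b RIPs eif2s1a, eif2d and eif4ba stand out and eif4g3a and eif4g3b are low, while EIF4A3 and eif5a stand out in eIF4E1c RIPs.

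For each of these 7 genes the DESeq2 log2 fold change between the inputs of the 2 proteins was no larger than 0.25 in size. Single inputs differed more, as for eif4g3b, which ran from 1585 in an eIF4E1b input to 2469 in an eIF4E1c input. eif2d counts were 488, 517 and 515 in eIF4E1b inputs, against 449, 485 and 490.3 in eIF4E1c inputs. eif5a counts were 539, 567 and 538 in eIF4E1b inputs, against 551, 422 and 559 in eIF4E1c inputs, and EIF4A3 averaged 1164 ± 64.8 in eIF4E1b inputs and 1080 ± 22.4 in eIF4E1c inputs (SD, n = 3 each). The calls of eif2s1a, eif2d, eif4ba, eif4g3a and eif4g3b held without any one of the 11 libraries. Each of those fits again gave RIPs and inputs a shared spread. That of eif5a ended without the eIF4E1b input of replicate 2 (DESeq2 adjusted p = 0.0063), and that of EIF4A3 ended in 10 of the 11 omissions, the eIF4E1c RIP of replicate 2 being the exception (DESeq2 adjusted p between 3.5e-07 and 0.029). Total count scaling ended the calls of eif2s1a and eif4ba, which kept their direction.

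The last comparisons set each RIP against its own lysate. RIP and input libraries were made with different kits, so an enrichment over input and a kit effect cannot be told apart, and values are read beside all genes tested. With eIF4E1b, 19 of 53 members were higher in the RIP than in input and 10 lower, beside 23.0% and 23.2% of all 17123 genes. With eIF4E1c, 15 of 53 were higher and 7 lower, beside 17.2% and 16.8% of all 15131 genes. The members' median log2 fold change was 0.50 with eIF4E1b, beside 0.05 for all genes, and 0.47 with eIF4E1c, beside 0.00387. In these calls 13 members were higher in both RIPs and 6 lower in both, and no member was higher in one and lower in the other. Calls shared by both RIPs were not counted over all genes. By sign alone 27 of 53 members were positive in both and 15 negative in both, beside 5744 and 6026 of 14907 genes. Such agreement in sign was thus not particular to the members, and without a background the shared calls are not read as particular to them either.

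**Figure D4:**
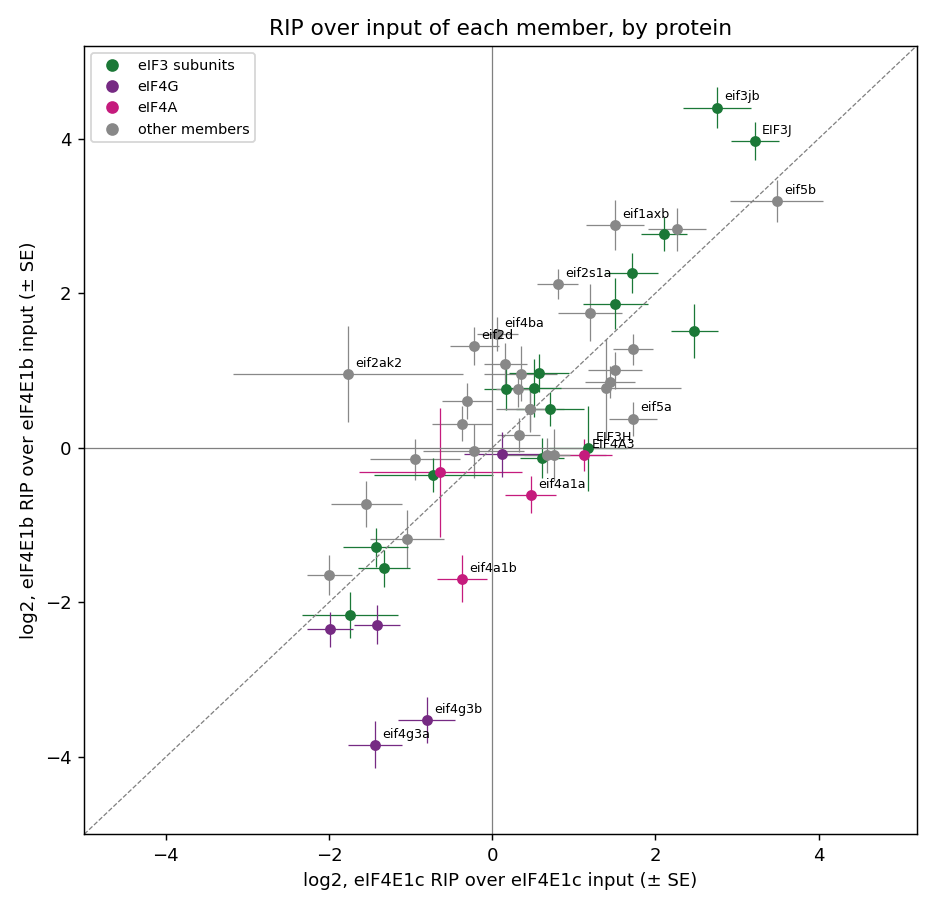
Log2 fold change of RIP over input for eIF4E1b (vertical axis) and eIF4E1c (horizontal axis), with standard errors, for the 53 members; the dashed line marks equal values. Most points follow the line, eif3jb, ENSDARG00000012603 (marked EIF3J) and eif5b are at the upper right, and eif4g3a and eif4g3b drop below the line at -3.84 and -3.52 on the vertical axis.

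The fold changes over input of the 2 proteins come from separate libraries and ran together across the members, with Pearson's r of 0.81 and Spearman's rho of 0.77 over 53 genes. Over all 14907 genes tested in both, the values were 0.77 and 0.76. These are descriptions across genes, which share the kit difference and are not independent replicates. Over the 16 eIF3 genes r was 0.93 and rho 0.89. Of these 10 were positive in both and 4 negative in both, beside 5744 and 6026 of the 14907 genes.

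eIF3 transcripts lay on both sides of input. With eIF4E1b 7 of the 16 were higher than input and 3 lower, beside 23.0% and 23.2% of all genes. With eIF4E1c 6 were higher and 2 lower, beside 17.2% and 16.8% of all genes. eif3jb stood at 21.1 times input with eIF4E1b (log2 4.40 ± 0.267, DESeq2 adjusted p = 5.06e-59) and at 6.76 times with eIF4E1c (2.76 ± 0.420, DESeq2 adjusted p = 6.64e-10), where the log2 value was 2.14 without the eIF4E1c RIP of replicate 1. The other eIF3j gene, ENSDARG00000012603, stood at 15.7 times input with eIF4E1b and at 9.29 times with eIF4E1c. In inputs eif3jb had only 241, 209 and 214 counts with eIF4E1b and 265, 317 and 261 with eIF4E1c, far under every RIP. The other eIF3 genes called higher with both proteins were eif3m, eif3f, eif3g and eif3k, at 6.80, 4.79, 3.64 and 2.85 times input with eIF4E1b and at 4.30, 3.27, 2.85 and 5.57 times with eIF4E1c. With eIF4E1c the call of eif3f ended without the eIF4E1c input of replicate 3 (DESeq2 adjusted p = 0.0060) and that of eif3g without replicate 1 or 2 (up to 0.019). The replicate block ended both of these calls, and edgeR ended that of eif3g.

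Among the eIF3 genes below input, eif3c was at 0.339 times input with eIF4E1b and at 0.398 times with eIF4E1c, and eif3ba at 0.409 times with eIF4E1b and 0.372 times with eIF4E1c, all called lower. With eIF4E1c neither edgeR nor the replicate block called eif3c or eif3ba. eif3s6ip, which encodes eIF3l, was at 0.223 times input with eIF4E1b (DESeq2 adjusted p = 4.75e-12) and at 0.299 times with eIF4E1c, where it missed the call (DESeq2 adjusted p = 0.0085). eif3k and eif3s6ip, whose products bind each other in mammalian eIF3, thus lay on opposite sides of input. eif3i and eif3ha were near input with eIF4E1b (0.915 and 0.784 times) and not called with either protein. With eIF4E1c the call of eif3ba ended without the eIF4E1c input of replicate 1, 2 or 3 (DESeq2 adjusted p up to 0.021), its log2 value was -2.03 without the eIF4E1c RIP of replicate 2, and the call of eif3c ended without replicate 2 or 3 (up to 0.013).

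**Figure D5:**
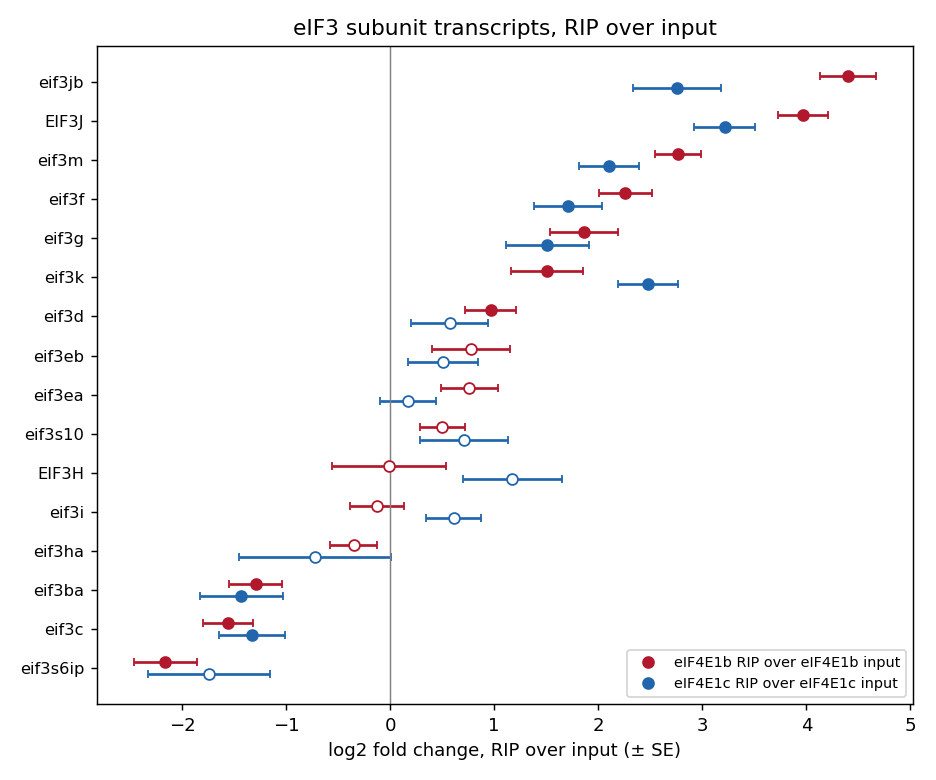
Log2 fold change of RIP over input for the 16 eIF3 genes tested, with eIF4E1b above eIF4E1c in each row, bars showing standard errors and filled points an adjusted p under 0.005; EIF3J and EIF3H mark the genes printed by identifier. Both eIF3j genes, eif3m, eif3f, eif3g and eif3k lie right of 0 with both proteins, and eif3ba, eif3c and eif3s6ip lie left of it.

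eif5b stood at 9.15 times input with eIF4E1b (log2 3.19 ± 0.278) and at 11.2 times with eIF4E1c (3.49 ± 0.573). The log2 value with eIF4E1c was 2.09 without the eIF4E1c RIP of replicate 1 and 4.20 without that of replicate 2, and it was called in both. Counts in inputs were 4225, 4825 and 5127 with eIF4E1b and 3949, 5622 and 5096 with eIF4E1c, below every RIP. eif2s2 was at 7.10 times input with eIF4E1b and 4.80 times with eIF4E1c. eif2s1a was at 4.34 times with eIF4E1b and 1.74 times with eIF4E1c, and eif1axb at 7.35 times with eIF4E1b and 2.84 times with eIF4E1c. Each of these values passed the test. eif1 and eif1b were higher in both RIPs too, at 2.01 and 2.42 times input with eIF4E1b and at 2.84 and 3.30 times with eIF4E1c, as was EIF6 at 1.80 times with eIF4E1b and 2.71 times with eIF4E1c. In the eIF4E1c comparison, omission of the eIF4E1c input of replicate 1 or 2 ended the calls of eif1axb and EIF6, that of replicate 2 or 3 the call of eif1, and that of any of the 3 the call of eif2s1a, with DESeq2 adjusted p up to 0.0059, 0.0054, 0.014 and 0.11. Neither edgeR nor the replicate block called eif1, eif1axb or eif2s1a with eIF4E1c, and the block did not call EIF6. In the eIF4E1b comparison the call of EIF6 ended without the eIF4E1b input of replicate 2 (DESeq2 adjusted p = 0.0077).

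Most eIF4G genes lay below input. eif4g2a had 5714, 7426 and 7410 counts in eIF4E1b inputs and 8321, 6806 and 7650.3 in eIF4E1c inputs, and its RIPs stood at 0.197 times input with eIF4E1b and 0.252 times with eIF4E1c. eif4g2b stood at 0.204 times input with eIF4E1b and 0.377 times with eIF4E1c, and all 4 values were called lower. EIF2AK3 was lower in both RIPs as well, at 0.319 times input with eIF4E1b and 0.251 times with eIF4E1c. eif4g1a was not called with either protein. Its eIF4E1c RIPs, at 11217 and 3978 counts, lay on both sides of the eIF4E1c input mean of 6987, and it was called lower than input without the eIF4E1c RIP of replicate 1 and higher without that of replicate 2. Of the 5 eIF4G genes, 4 were called lower than input with eIF4E1b and 3 with eIF4E1c, beside 23.2% and 16.8% of all genes. With eIF4E1c the count was 1, eif4g2a, with edgeR and with the replicate block. Over all genes edgeR called 6.89% lower than input with eIF4E1c. The call of eif4g3a with eIF4E1c ended without the eIF4E1c input of replicate 1 or 3 (DESeq2 adjusted p up to 0.0081).

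Some members were called over input with a single protein. eif2d, EIF4B and eif4ba were higher than input with eIF4E1b, at 2.49, 2.11 and 2.78 times, and stood at 0.859, 1.12 and 1.05 times input with eIF4E1c, where none passed. eif5a and EIF4A3 were higher than input with eIF4E1c, at 3.31 and 2.18 times, and stood at 1.30 and 0.936 times with eIF4E1b, where neither passed. The call of EIF4A3 ended without any one of the 3 eIF4E1c inputs (DESeq2 adjusted p up to 0.046) and that of EIF4B without the eIF4E1b input of replicate 1 (0.0077). Neither edgeR nor the replicate block called EIF4A3 or eif2b5 over input with eIF4E1c. eif4a1b was lower than input with eIF4E1b, at 0.309 times, and stood at 0.773 times with eIF4E1c. The interaction above tests these differences, and of the 6 genes it called eif2d, eif4ba, eif5a and EIF4A3 and neither EIF4B (DESeq2 adjusted p = 0.071) nor eif4a1b (DESeq2 adjusted p = 0.023). Also called lower than input with eIF4E1b alone were eif3s6ip and eif4g3b, given above, of which the interaction called eif4g3b. The remaining genes called with a single protein were not called by the interaction. Their calls were eif1ad, eif3d and eif5 above and EIF2AK4 below input with eIF4E1b, and eif2b5 below input with eIF4E1c (log2 -1.54, and -2.27 without the eIF4E1c RIP of replicate 2). That of eif3d ended without the eIF4E1b input of replicate 3, those of eif5 and EIF2AK4 in 5 of 6 omissions each, the exceptions being the eIF4E1b RIPs of replicate 1 and of replicate 3, and that of eif2b5 without any one of the eIF4E1c inputs, with DESeq2 adjusted p up to 0.010, 0.045, 0.033 and 0.024. In the eIF4E1b libraries replicate numbers paired RIPs with inputs, which the calls above left out. With the replicate as a block the calls were 22 higher and 11 lower, adding eif2ak1, eif3ea and eif3eb above input and eif2b5 below it. The share of all genes called with the block was not counted.

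Duplicated genes of the same factor were not always alike within a library. The log2 ratio of eif2s1a over eif2s1b was 4.80 ± 0.350 in eIF4E1b RIPs (SD, n = 3) and 4.03 ± 1.32 in eIF4E1c RIPs (n = 2), against 2.49 ± 0.0576 in eIF4E1b inputs and 1.97 ± 0.0560 in eIF4E1c inputs (n = 3 each). The eif2s1a copy was thus a larger share of the pair in every RIP than in any input. RIPs and inputs also differ in kit, and a kit effect on these ratios cannot be told apart. The ratio of eif1axb over eif1axa was 2.51 ± 0.308 in eIF4E1b RIPs and 1.601 ± 0.0743 in eIF4E1c RIPs, against 0.21 ± 0.257 in eIF4E1b inputs and 0.58 ± 0.304 in eIF4E1c inputs. For eif4g3a over eif4g3b it was 0.02 ± 0.430 in eIF4E1b RIPs and -0.31 ± 0.0256 in eIF4E1c RIPs, which differ by less than the SD among eIF4E1b RIPs. For eif1 over eif1b it was -3.36 ± 0.122 in eIF4E1b RIPs and -3.19 ± 0.144 in eIF4E1c RIPs. In inputs it was -3.07 ± 0.140 with eIF4E1b and -2.98 ± 0.235 with eIF4E1c. Other pairs compared are not given here. The ratio holds pseudocounts of 1 and no length correction, so only its differences between libraries are read, and reads from near-identical copies may have been split between them.

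Other genes of the pathway came from lists of poly(A)-binding proteins and their partners, scanning helicases and recycling factors, the integrated stress response, and mTOR and MNK signalling. The lists were chosen with earlier results of these data known, so their counts only describe the listed genes and test nothing about the pathway. Of 45 such genes tested between the RIPs 0 were higher with eIF4E1b and 10 were lower, beside the 3.44% and 4.51% of all genes given above. The median log2 fold change of the 45 was -0.35. The genes lower were 4 of 15 in the poly(A) list, 3 of 9 in the scanning and recycling list, 1 of 10 in the stress list and 2 of 11 in the mTOR and MNK list. edgeR called 0 of them at 0.005, beside 2 genes higher and 2 lower in the whole table. At an unadjusted p under 0.05 it listed 6, 3, 1 and 3 genes of those lists, all with negative values, beside 2136 of 14017 genes. The count lower was 6 without the eIF4E1b RIP of replicate 1, 5 without replicate 2, 4 without replicate 3 and 6 without the eIF4E1c RIP of replicate 1. The calls of dap and akt1s1 held in all 5 omissions. That of lsm14aa ended in all 5, those of ybx1, pdcd4a and mknk1 in 4, that of pabpc1a without the eIF4E1c RIP of replicate 1 (DESeq2 adjusted p = 0.0061) and that of rack1 without the eIF4E1b RIP of replicate 3 (DESeq2 adjusted p = 0.0090).

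pabpc1a, the somatic cytoplasmic poly(A)-binding protein that bridges the tail to eIF4G, had 2402, 4229 and 4626 counts in eIF4E1b RIPs, against 21152 and 11042 in eIF4E1c RIPs (log2 fold change -2.17 ± 0.462, DESeq2 adjusted p = 0.000101). pabpc1l, the embryonic poly(A)-binding protein, had 4119, 2788 and 4341 counts in eIF4E1b RIPs, against 1781 and 2345 in eIF4E1c RIPs, and its 0.80 ± 0.402 did not pass (DESeq2 adjusted p = 0.15). The RNA-binding proteins ybx1 and lsm14aa were lower at -1.37 ± 0.385 and -1.49 ± 0.408. pdcd4a, an inhibitor of eIF4A, was lower at -1.77 ± 0.458, rack1, a protein of the small ribosomal subunit, at -1.98 ± 0.443, and dap, related to a factor of dormant ribosomes, at -2.68 ± 0.502 (-1.99 without the eIF4E1c RIP of replicate 2).

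gcn1, whose product activates the amino acid sensing kinase in yeast and mammals, had 142, 108 and 68.1 counts in eIF4E1b RIPs, against 857 and 331 in eIF4E1c RIPs (-2.54 ± 0.562). Over the omissions its value ran between -3.08 and -1.72, with -1.72 without the eIF4E1c RIP of replicate 1, and its call ended without that library or the eIF4E1b RIP of replicate 2 or 3 (DESeq2 adjusted p up to 0.028). It was also lower between inputs, with 1051, 1316 and 1603 counts in eIF4E1b inputs, against 2551, 2017 and 2461 in eIF4E1c inputs, as EIF2AK4 was. akt1s1, an inhibitor subunit of mTOR complex 1, and mknk1, the kinase of eIF4E, were lower between the RIPs at -2.27 ± 0.436 and -1.65 ± 0.457. In the RIP to input ratio 8 of 45 were lower and 0 higher, beside the 5.24% and 3.73% above, and rack1 and gcn1 were the genes that dropped out (DESeq2 adjusted p = 0.0076 and 0.018). edgeR called 2 of the 45 in the ratio, both lower, beside 1.14% of all genes called lower.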

How the data were processed

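RNA-seq libraries of 5 RIPs and 6 inputs were analysed. The SMARTer Ultra Low kit was used for RIP RNA and a stranded SMARTer kit with ribosomal RNA removal for inputs. The authors deposited 1 table of raw read counts, in whole numbers, for each library, with Ensembl genes as rows. The submitters' processing notes name GRCz11, Trim Galore 0.5.0, Bowtie2 2.3.4.1, featureCounts, Subread 1.6.2, DESeq2 1.18.1 and R 3.4.1. The annotation release, the strand setting and the handling of multiply mapping reads are not given in the sources used here, so overlapping, antisense and near-identical genes may share reads.

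Each comparison was fitted over all genes with DESeq2 1.42.0 (R 4.3.3, Wald test, two-sided, median-of-ratios size factors, unshrunken fold changes, independent filtering at 0.005), after the study's methods. The alternatives were edgeR 4.0.16, TMM and total count scaling, a minimum of 10 counts in 2 libraries, no independent filtering, a threshold of 0.05, a replicate block, all 11 libraries in one fit, and each library left out. The models were tested on simulated counts with equal spread in RIPs and inputs and no pairing. That test does not cover the unequal spread of these libraries. Total counts ranged between 6943631 and 13993294, and a count of 0 allows up to 3. No replicate pair agreed within sampling noise (chi-square per degree of freedom between 12.1 and 139). Same-numbered eIF4E1b RIPs and inputs deviated together (correlations between 0.287 and 0.489, against -0.463 to -0.0295 for other numbers), so the numbers were taken to pair them. Only the replicate block used the replicate numbers, and the main fits of RIP over input and of the ratio left them out. Their p-values measure the spread between the labelled biological replicates as if unpaired.

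Named genes were all members called between RIPs, between inputs or in the ratio, the member of each factor with the smallest adjusted p between RIPs, all eIF4A and eIF4G genes, the eIF2 alpha and gamma subunits, and partner genes called in those comparisons, of which 1 is counted but not reported here by name. Other members were named after their values were seen. Members and lists were chosen with earlier results of these data known. Of the 54 members, 41 were given the zebrafish symbol that the study pairs with the identifier. Sequences, positions and gene lengths were not used here.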

Additional observations from a re-analysis of the deposited data

Results flagged for a closer look

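The ratio of RIP to input differed between eIF4E1b and eIF4E1c for 7 members by the interaction test of DESeq2. The log2 ratio difference, eIF4E1b over eIF4E1c, was 1.34 for eif2s1a, 1.56 for eif2d and 1.44 for eif4ba, and -1.19 for EIF4A3, -2.38 for eif4g3a, -2.69 for eif4g3b and -1.32 for eif5a. edgeR's interaction test called eif4g3a and eif4g3b at the same threshold, beside 1.14% of all genes called lower. It gave adjusted p between 0.00891 and 0.024 for the other 5.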

How the results depend on the processing

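Outside the main fits and edgeR, calls were not counted over all genes. Changes in the member counts below are thus not read as particular to the members. Over all genes edgeR called 0.0825% higher and 0.0138% lower between inputs, and 0.417% and 1.14% in the ratio. For eIF4E1c RIP over input it called 9.09% of all genes higher and 6.89% lower. Between the RIPs 2 members were higher and 2 lower. The count higher was 0 with edgeR, with total count scaling and with the replicate block, 7 at an adjusted p under 0.05 and 9 when the 11 libraries were fitted together. The count lower was 0 with edgeR, 5 at 0.05 and 7 with all 11 libraries. With each library left out, 0 to 3 were higher and 2 to 3 lower. An omitted eIF4E1c RIP leaves a lone library, assumed to vary like the others. Among the members for which single values were refitted with each library left out, the log2 fold changes of eif2b3, eif2s1b, eif4g1a and eif5b, none of them called between the RIPs, changed sign without the eIF4E1c RIP of replicate 1, and over the omissions ran from -1.52 to 0.32, -0.29 to 1.67, -1.43 to 0.053 and -1.09 to 1.03. Between inputs the count lower was 0 with edgeR and with all 11 libraries, and 1 to 2 with each library left out. In the ratio 0 were higher and 2 lower with edgeR, 6 and 7 at 0.05, and 3 to 6 and 2 to 6 with each library left out. For eIF4E1c RIP over input, edgeR gave 2 lower, the replicate block gave 8 higher and 2 lower, and omissions gave 9 to 19 higher and 3 to 11 lower. Total count scaling moved the median of all genes by over 0.1, to -0.12 between the RIPs, -0.17 in the ratio, -0.38 for eIF4E1b and -0.21 for eIF4E1c over input, and the members' median for eIF4E1b over input to 0.054 with it. The cause of these changes was not tested. The eIF4E1c RIP labelled replicate 2 has another number in its file, and the label was followed in the pairing. Its deviations correlated at 0.0723 with eIF4E1c input replicate 2 and at 0.210 with eIF4E1c input replicate 3, so the block may pair it wrongly. For the eIF4E1c RIP of replicate 1 the correlation with eIF4E1c input replicate 1 was 0.210. With only 2 RIPs, the values of 1 mirror those of the other with the sign reversed. The labels do not say whether same-numbered libraries of the 2 proteins shared more than a number. Deviations of same-numbered eIF4E1b RIPs and eIF4E1c inputs correlated between 0.0368 and 0.188, against -0.1505 to 0.0824 for other numbers. For the inputs of the 2 proteins the ranges were -0.0726 to 0.115 and -0.108 to 0.115. The paired fit ended the ratio call of EIF4A3. For the partner lists, run under the same settings after seeing the data, the count lower between the RIPs was 0 with edgeR, 4 with the replicate block and 6 with total count scaling. Depth limits genes such as EIF4A2, eif2ak2 and eif2b1, at no more than 52.7 normalised counts in any library.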
